A study of Mus musculus with 2 samples.

Results

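The miRNA genes Mir770, Mir673, Mir493, Mir337, Mir540 and Mir665 lie within and just beyond Meg3, at the start of the miRNA array of the imprinted Dlk1-Dio3 domain on mouse chromosome 12. They were taken by symbol, 6 of the 2202 miRNA genes in the count tables. All 6 passed the filter of 10 counts in each library, as did 392 of the 2202. Small RNAs under 30 bases were sequenced from the left cerebral cortex of 2 male mice of the hybrid strain B6CASTF1/J (C57BL/6J crossed with CAST/EiJ), aged 25 days, with 1 library per mouse. The labels give 1 group with biological replicates 2 and 1, no treatment and no engineered allele. The values therefore describe the cortex of these animals, and the only contrast is replicate 2 against replicate 1. The tissue was bulk cortex, so fewer cells of a type and less RNA per cell cannot be told apart.

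The Dlk1-Dio3 domain is expressed by parent of origin. Protein-coding genes such as Dlk1, Rtl1 and Dio3 are active on the paternal chromosome, while the non-coding RNAs Meg3, Rian and Mirg and the miRNAs of the domain come from the maternal chromosome. A miRNA is cut from a hairpin precursor into short mature strands, named 5p and 3p by the arm they come from, and the seed at its 5′ end sets most of its pairing with target mRNAs. The domain's miRNAs are known for strong expression in brain and placenta. In mouse nomenclature the mother's strain is named first, so the maternal chromosome would be that of C57BL/6J. The tables do not separate alleles, and parental origin was not tested.

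The mature strands of all 6 genes are given first, because they are the molecules the counts stand for and because their seeds show whether the genes form a family. All 6 symbols matched RefSeq entries on GRCm38.p6, each with the same interval as in the annotation. They are written 5′ to 3′, with the seed (bases 2 to 8) in capitals.
miR-770-5p: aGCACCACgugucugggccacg
miR-770-3p: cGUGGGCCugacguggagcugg
miR-673-5p: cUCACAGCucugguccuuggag
miR-673-3p: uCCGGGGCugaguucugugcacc
miR-493-5p: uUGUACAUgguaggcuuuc
miR-493-3p: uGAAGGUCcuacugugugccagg
miR-337-5p: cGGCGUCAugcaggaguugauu
miR-337-3p: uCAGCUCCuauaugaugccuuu
miR-540-5p: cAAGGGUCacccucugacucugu
miR-540-3p: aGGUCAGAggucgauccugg
miR-665-5p: aGGGGCCUcugccucuauccaggauu
miR-665-3p: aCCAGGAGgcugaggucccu

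The 12 strands carried 12 distinct seeds, so no pair of these neighbours belongs to a seed family. Among the 1738 mature mouse miRNAs in the RefSeq table, 2 of the 12 shared a seed with a strand of another gene: miR-673-5p with miR-6985-3p and miR-540-3p with miR-6915-5p. Of all mature miRNAs in the table, 32.0% shared a seed in this way. With the seed shortened by its last base, 8 of the 12 matched a strand of another gene, where 55.5% of all mature miRNAs in the table did. The added matches were miR-770-5p with miR-767, miR-770-3p with miR-7658-5p, miR-673-5p with miR-27a-3p and miR-27b-3p, and miR-673-3p with miR-7059-5p. They also paired miR-493-5p with let-7a-2-3p and let-7c-1-3p, miR-665-5p with miR-128-1-5p and miR-128-2-5p, and miR-665-3p with miR-7222-3p. The tables count each hairpin as a whole, so the values below do not say which arm the reads came from. Each of the 12 strands was found on its own strand only in its own gene among 141767 GENCODE transcripts, apart from both miR-770 strands, which also occur in Meg3.

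The genes span 22716 bases on the plus strand of chromosome 12 (mm10), and only Mir770 lies inside the annotated Meg3 gene (109541001 to 109571726). Mir770 (ENSMUSG00000076451.1) occupies 109563692 to 109563785. Of 11 annotated Meg3 transcripts, 4 span it: it is exonic in 1, within an exon of 13087 bases, and intronic in the other 3. Mir673 (ENSMUSG00000076316.1, 109571990 to 109572080) starts 263 bases beyond the annotated end of Meg3, and Mir493 (ENSMUSG00000077025.2) occupies 109580233 to 109580315. The last 3 genes sit within 619 bases: Mir337 (ENSMUSG00000065526.4, 109585789 to 109585885), Mir540 (ENSMUSG00000072900.2, 109586080 to 109586146) and Mir665 (ENSMUSG00000076313.1, 109586314 to 109586407). In GENCODE M21 no long gene overlaps Mir673, Mir493, Mir337, Mir540 or Mir665. In RefSeq these 5 fall inside the gene Rtl1, which encodes a retrotransposon-derived placental protein. Rtl1 is annotated on the minus strand in GENCODE, and its nearer end, the 3′ end of the gene, lies 2785 bases past Mir665.

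Own-strand gene counts totalled 4447390 in replicate 2 and 2388379 in replicate 1, and levels are counts per 1000000 of these totals (CPM). The floor of 3 counts is 0.675 CPM in replicate 2 and 1.26 CPM in replicate 1; floors and intervals cover counting error only, since no molecular identifiers are stated and reads may repeat a molecule. Of the mapped reads, 52.8% in replicate 2 and 48.6% in replicate 1 matched several places and were assigned to no gene. The neuronal miRNA list (6 of 6 genes with counts) summed to 68551 CPM in replicate 2, against 81862 CPM in replicate 1. Within it Mir132 (log2 ratio of CPM, replicate 2 over replicate 1, −0.68) and Mir138-2 (−0.08) were lower in replicate 2. Mir128-1 (0.70), Mir137 (0.34), Mir129-2 (0.75) and Mir488 (0.16) were higher, so the sum followed Mir132 and not most of the list. The liver and heart lists stayed between 20.9 and 57.6 CPM, and of the markers on all lists only the muscle gene Mir133b had no count. The skeletal muscle list summed to 22.3 CPM in replicate 2, against 13.4 CPM in replicate 1. White blood cell and microglia miRNAs (3 of 3 with counts) summed to 1626 CPM in replicate 2, against 1504 CPM in replicate 1. Red-cell miRNAs (2 of 2) summed to 108 CPM in replicate 2, against 118 CPM in replicate 1. Endothelial and smooth-muscle miRNAs (3 of 3 with counts) summed to 28009 CPM in replicate 2, against 16755 CPM in replicate 1. This sum followed Mir126a (log2 ratio 1.06), while Mir143 (−0.11) and Mir145a (−0.22) were lower in replicate 2. Oligodendrocyte miRNAs (2 of 2) summed to 3551 CPM in replicate 2, against 2718 CPM in replicate 1, with Mir219a-2 at 0.72 and Mir338 at −0.03. The part of these cell types in the differences below was not tested.

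Mir770 dominated the group. It had 63298 counts (14233 CPM) in replicate 2 and 54324 counts (22745 CPM) in replicate 1, a mean of 18489 ± 6019 CPM (SD, n = 2). Its share of all counts was 1.42% in replicate 2, with an exact 95% interval (Clopper-Pearson) of 1.412 to 1.434%. In replicate 1 it was 2.27%, with an interval of 2.256 to 2.294%. Mir770 ranked 17th among all miRNA genes in replicate 2 and 10th in replicate 1. Within the domain its mean ranked 3 of 67, and Mir127 (54060 CPM) ranked 1.

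Mir337, at the head of the compact trio, came next. It had 12745 counts (2866 CPM) in replicate 2 and 4842 counts (2027 CPM) in replicate 1, averaging 2447 ± 593 CPM (SD, n = 2). Its neighbour Mir540, 194 bases downstream, had 5124 counts (1152 CPM) in replicate 2 and 2660 counts (1114 CPM) in replicate 1, a mean of 1133 ± 27.2 CPM. The libraries thus lay close together for Mir540 and apart for Mir337.

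Mir673, just past the end of Meg3, had 3814 counts (858 CPM) in replicate 2 and 1979 counts (829 CPM) in replicate 1, averaging 843 ± 20.5 CPM (SD, n = 2). Mir665 had 2143 counts (482 CPM) in replicate 2 and 1042 counts (436 CPM) in replicate 1, averaging 459 ± 32.2 CPM. Both were lower than Mir540 in each library. Mir493, whose human counterpart is known as a suppressor of metastasis in cancer cells, was the scarcest. It had 414 counts (93.1 CPM) in replicate 2 and 293 counts (123 CPM) in replicate 1, a mean of 108 ± 20.9 CPM, and its lower value was still far above the floor of 3 counts.

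**Figure D1:**
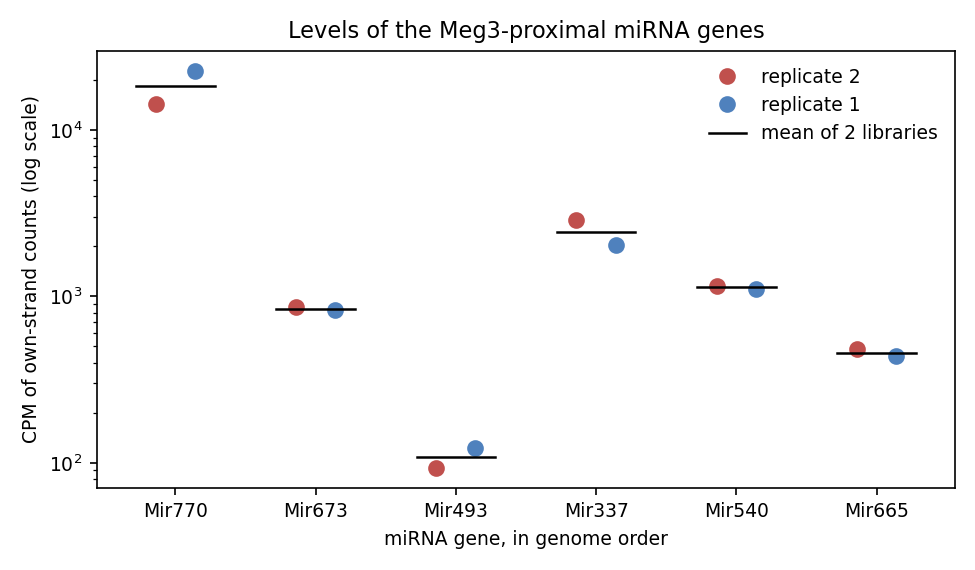
Level of each gene in CPM of own-strand counts on a log axis, with replicate 2 left of replicate 1 and a line at the mean of the 2 libraries. Mir770 (replicate 2, 14233 CPM; replicate 1, 22745 CPM) stands above every value of the other 5 genes. Mir493 (replicate 2, 93.1 CPM; replicate 1, 123 CPM) lies lowest.

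The order of levels was Mir770, Mir337, Mir540, Mir673, Mir665 and Mir493, and it was the same in both libraries. Each gene's lower library stood above the higher library of the gene next in order. The steps between neighbouring means were 7.56-fold from Mir770 to Mir337, 2.16-fold from Mir337 to Mir540 and 1.34-fold from Mir540 to Mir673. Mir673 stood 1.84-fold above Mir665 and Mir665 4.26-fold above Mir493, so the group spanned 171-fold. Per 100 bases of hairpin the order did not change, at 19669 CPM for Mir770, 2522 CPM for Mir337, 1691 CPM for Mir540, 926 CPM for Mir673, 488 CPM for Mir665 and 130 CPM for Mir493. Of the 6 genes, 3 were among the 100 most abundant of all 2202 miRNA genes by mean CPM, with Mir540 at rank 99. Of the 2202 genes, 1441 had no count in either library. The median mean level of the 6 was 988 CPM. Over all 392 measured genes (those with 10 or more counts in both libraries) it was 121 CPM.

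Level did not follow position along the chromosome. The highest and the lowest of the 6 lie 16447 bases apart with Mir673 between them, and the last 3, which share 619 bases, differed by 5.95-fold (Mir337 over Mir665) in replicate 2 and 4.65-fold in replicate 1. Of the 5 pairs adjacent on the chromosome, 1 kept a count ratio that differed by less than 2 counting SE between the libraries, and 4 differed by more. The steady pair was Mir540 and Mir665: Mir540 held 2.39 times the count of Mir665 in replicate 2 and 2.55 times in replicate 1, a log2 difference of −0.09 ± 0.0645 (counting SE). Mir337 held 2.49 times the count of Mir540 in replicate 2 and 1.82 times in replicate 1, a log2 difference of 0.45 ± 0.0422. The log2 difference was −0.73 ± 0.0408 for Mir770 over Mir673, 0.45 ± 0.117 for Mir673 over Mir493 and −0.90 ± 0.113 for Mir493 over Mir337. Over all 15 pairs, 3 differed by less than 2 counting SE, those among Mir673, Mir540 and Mir665. Mir673, which lies 13999 bases before Mir540 with Mir493 and Mir337 between them, held 0.744 of its count in each library, a log2 difference of 0.00 ± 0.0528. Of the 6, these 3 genes had the log2 ratios between the libraries closest to 0.

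Because Mir770 supplied most of the counts, any sum over the group follows Mir770. It took 72.3% of the counts of the 6 genes in replicate 2 (exact 95% interval 72.0 to 72.6%) and 83.4% in replicate 1 (83.1 to 83.7%). Mir337 took 14.6% in replicate 2 and 7.43% in replicate 1. Mir540 followed with 5.85% in replicate 2 and 4.08% in replicate 1, Mir673 with 4.36% in replicate 2 and 3.04% in replicate 1, and Mir665 with 2.45% in replicate 2 and 1.60% in replicate 1. Mir493 took 0.473% in replicate 2 and 0.450% in replicate 1. With Mir770 set aside, Mir337 made up 52.6% of the other 5 in replicate 2 (51.9 to 53.2%) and 44.8% in replicate 1 (43.8 to 45.7%).

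**Figure D2:**
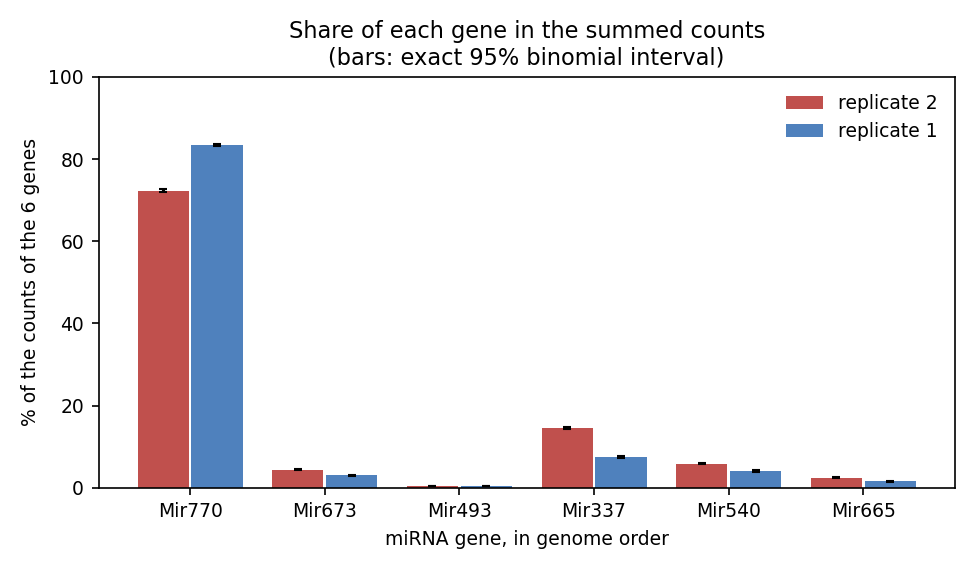
Share of each gene in the summed counts of the 6 genes, in percent from 0, with replicate 2 left of replicate 1 and exact 95% binomial intervals as error bars. Mir770 holds 72.3% in replicate 2 and 83.4% in replicate 1, and Mir337 holds 14.6% in replicate 2 and 7.43% in replicate 1.

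Between the libraries the genes moved in different directions. Mir770 and Mir493 were lower in replicate 2, Mir337 and Mir665 were higher, and Mir673 and Mir540 did not pass the test. Each gene was compared given the library totals by a two-sided exact binomial test, with Benjamini-Hochberg adjustment over all 392 measured genes. Of the 6 genes 4 passed an adjusted p of 0.05, where 56.9% of all measured genes did. By direction, 2 were higher, where 34.2% of all measured genes were, and 2 were lower, where 22.7% were. The shares are close to this background. The test compares these 2 libraries by counting error, not conditions. Each mouse gave 1 library, so effects of the animal and of the library preparation cannot be told apart.

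Mir770 was lower in replicate 2 by a log2 ratio of −0.68 ± 0.00844 (counting SE), or 0.626-fold, with an adjusted p too small for the software to represent. Mir337 was 1.41-fold higher, at a log2 ratio of 0.50 ± 0.0244 (adjusted p = 6.12e-97, exact binomial test). These large counts make the counting error very small, so the p-values say little about the spread between animals. Mir493 was lower, with a log2 ratio of −0.40 ± 0.110 (adjusted p = 0.000818, exact binomial test). Mir665 was higher at a log2 ratio of 0.14 ± 0.0545 (adjusted p = 0.0156, exact binomial test), but at 0.09 with TMM scaling it no longer passed (adjusted p = 0.179, exact binomial test), nor at 0.08 with DESeq2 size factors (adjusted p = 0.236, exact binomial test).

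Mir673 had a log2 ratio of 0.05 ± 0.0400 (adjusted p = 0.306, exact binomial test), with a 95% counting interval of −0.03 to 0.13. Mir540 had a log2 ratio of 0.05 ± 0.0345 (adjusted p = 0.229, exact binomial test), with an interval of −0.02 to 0.12. With TMM or DESeq2 scaling both ratios turned slightly negative, between −0.02 and −0.01, so neither gene had a clear direction. The median log2 ratio of the 6 genes was 0.05, against 0.06 over all measured genes, and their median absolute log2 ratio was 0.27, against 0.34 over all measured genes.

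With a spread estimated from these same 2 libraries, none of these differences remained a call. In edgeR's exact test with a common dispersion from the same pair (biological coefficient of variation 0.3113), 0 of the 6 genes passed adjusted p = 0.05, where 0.765% of all measured genes did, and 0 of the 6 had an unadjusted p under 0.05. That test sets 1 library against 1 library and has no replicate check. Its dispersion comes from the same differences that it tests, so it cannot decide whether they exceed the spread between animals. The log2 ratios of the 242 genes that reached 100 counts in both libraries had an SD of 0.559. The log2 ratio of Mir770 exceeded that SD in size, and those of the other 5 did not.

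**Figure D3:**
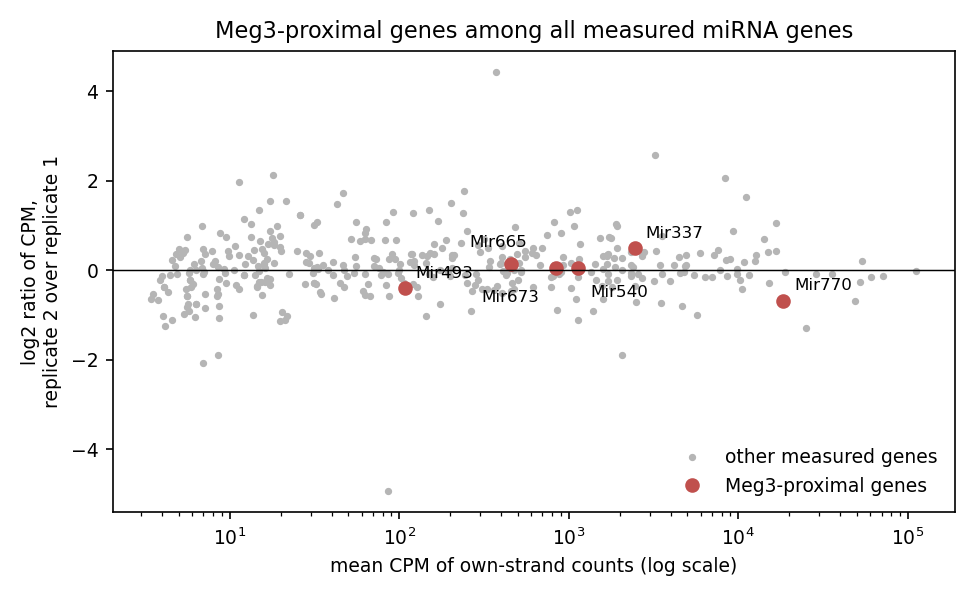
Log2 ratio of CPM, replicate 2 over replicate 1, against mean CPM on a log axis for all 392 measured miRNA genes, with the 6 genes in red. They fall inside the cloud of the other genes, from −0.68 for Mir770 to 0.50 for Mir337.

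Within the domain, the 6 genes summed to 19683 CPM in replicate 2, against 27274 CPM in replicate 1, or 23478 ± 5367 CPM (SD, n = 2). The other 61 miRNA genes between the starts of Dlk1 and Dio3 summed to 157193 CPM in replicate 2, against 150782 CPM in replicate 1. The 6 genes therefore took 11.1% of the domain's counts in replicate 2 (exact 95% interval 11.1 to 11.2%) and 15.3% in replicate 1 (15.2 to 15.4%). Without Mir770 the direction was the opposite: the other 5 took 3.35% of the remaining domain counts in replicate 2 (3.31 to 3.39%) and 2.92% in replicate 1 (2.86 to 2.97%). Their summed level was 5450 CPM in replicate 2, against 4529 CPM in replicate 1.

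The other large stretches of the domain had sums closer to each other in the 2 libraries. The 14 genes after Mir665 and before Mir379, which include the Rtl1-antisense miRNA Mir127, summed to 80807 CPM in replicate 2, against 74359 CPM in replicate 1. The 43 genes from Mir379 to Mir410, the far cluster of the domain, summed to 76166 CPM in replicate 2, against 76266 CPM in replicate 1. Their landmarks were mixed too: Mir127 had a log2 ratio of 0.21, Mir379 of −0.14 and Mir410 of −0.37. Of the 46 other domain genes measured, 23 were higher and 11 lower in replicate 2 past the binomial test. Over all measured genes 34.2% were higher and 22.7% lower. The median log2 ratio of the 46 was 0.16 and their median mean level 537 CPM, against 0.06 and 121 CPM over all measured genes. The binomial test passes smaller ratios where counts are higher.

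**Figure D4:**
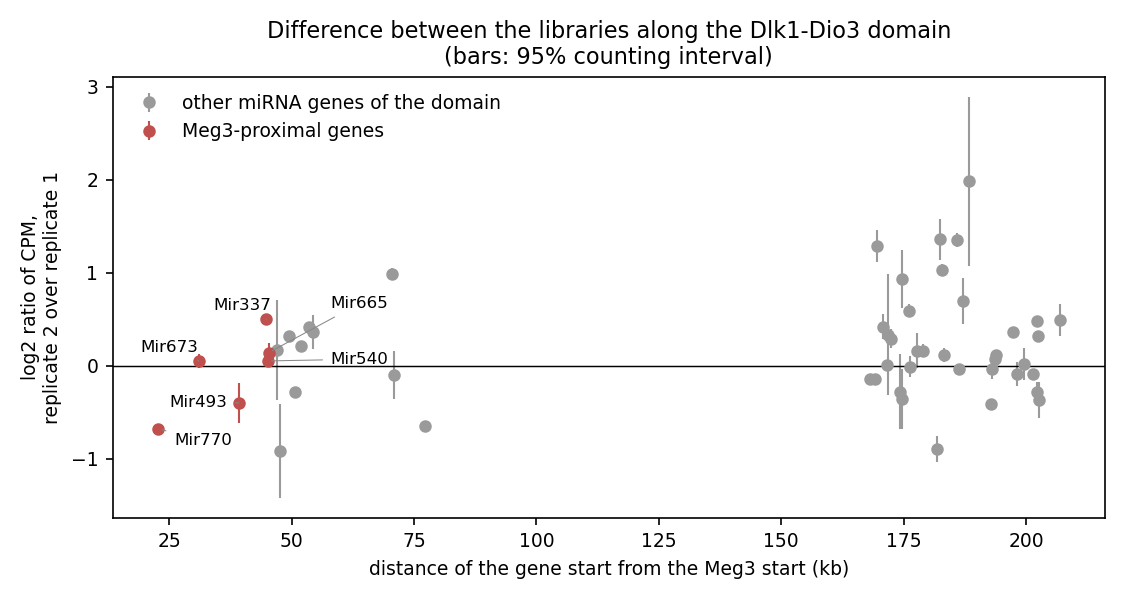
Log2 ratio of CPM, replicate 2 over replicate 1, of the measured domain genes against the distance of their start from the Meg3 start, with 95% counting intervals as bars; Mir1247, far downstream near Dio3, is not drawn. Mir770 at 22.69 kb lies at −0.68 and Mir337 at 44.79 kb at 0.50, and both signs occur before Mir379 as well as between Mir379 and Mir410.

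The annotation places further miRNA genes among the 6. Mir1906-1, inside Meg3 and before Mir770, had 0 counts in both libraries, and reads that also match its copy Mir1906-2 would not have been assigned. Mir3544 lies on the minus strand within Mir337, over 61 bases. The hairpin of Mir337 is shown because of this overlap, with the bases opposite Mir3544 in capitals, followed by the Mir3544 strands with their seeds in capitals.
Mir337: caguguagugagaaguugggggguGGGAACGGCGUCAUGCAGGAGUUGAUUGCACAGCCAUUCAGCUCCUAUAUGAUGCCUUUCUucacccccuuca
miR-3544-3p: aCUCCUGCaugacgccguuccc
miR-3544-5p: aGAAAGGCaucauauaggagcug
Reads on the plus strand belonged to Mir337 and reads on the minus strand to Mir3544. Mir3544 had 4 counts in replicate 2, which is 0.0314% of both strands (exact 95% interval 0.00855 to 0.0803%), and 1 count in replicate 1, or 0.0206% (0.000523 to 0.115%). The strand of Mir337 thus carried nearly all reads of the locus.

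This overlap also decides how the locus is counted. In the column that takes both strands together, Mir337 and Mir3544 had 0 counts in both libraries, since reads in overlapping genes belong to neither. The other 5 genes had the same count in that column as on their own strand, and no count on the opposite strand in either library. Overlapping plus and minus miRNA genes occur 7 times in the domain, and the minus gene had counts at 2 of them. Beside Mir3544 this was Mir299b, opposite Mir299a, with 0 counts in replicate 2, which allows up to 0.244% of both strands (exact 95% interval), and 3 counts in replicate 1, or 0.896% (0.185 to 2.59%). The reading of the columns as strands rests on the values. For Mir337 and Mir3544 the own-strand and opposite-strand counts mirror each other exactly. For Mir299a and Mir299b they differ slightly in replicate 2, with 1508 own-strand counts of Mir299a and 1507 opposite-strand counts of Mir299b.

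Apart from Mir337 and Mir3544, the hairpins shared short runs with other hairpins in the RefSeq table. The longest exact run on either strand was 13 bases for Mir770 and Mir540, 12 for Mir673, and 14 for Mir493 and Mir665. No near-identical hairpin with which reads could be confused was thus found in that table, while the rest of the genome was not searched. The reference is that of C57BL/6J, and the effect of mismatches in CAST/EiJ reads was not tested.

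By base composition and predicted folding, all 6 hairpins were richer in G and C and folded more stably than the median mouse hairpin. Their share of G and C bases ran between 52.6% for Mir337 and 70.2% for Mir770, against a median of 51.7% over 1005 mouse hairpins. Mir337, Mir493 (53.0%) and Mir665 (53.2%) lay only a little above that median. Mir540 (61.2%), Mir673 (61.5%) and Mir770 lay further above it. The RNAfold energy per 100 bases was −61.9 kcal/mol for Mir770, −61.0 for Mir540, −54.2 for Mir493, −50.9 for Mir337, −47.0 for Mir665 and −46.5 for Mir673, against a median of −40.6 kcal/mol. The most abundant gene, Mir770, thus had the most negative energy of the 6, but the scarcest, Mir493, came next after Mir540, so the levels did not follow the energies in order.

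**Figure D5:**
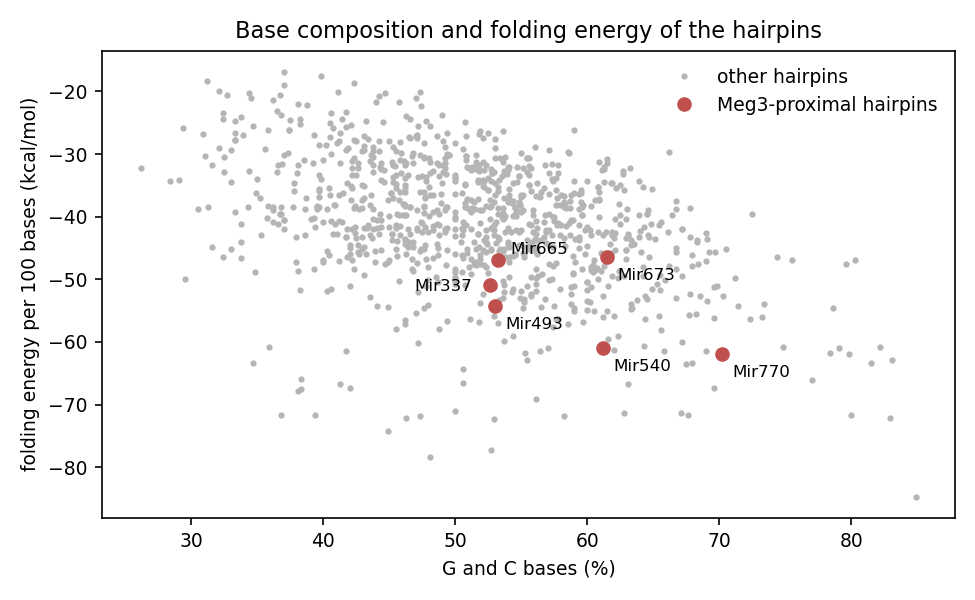
Minimum free energy of folding per 100 bases (kcal/mol) against the percentage of G and C bases for 1005 mouse miRNA hairpins, with the 6 genes in red. Mir770 lies at 70.2% and −61.9 kcal/mol, and all 6 have energies below the median of −40.6 kcal/mol.

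The hairpin of Mir770 is shown for a repeat in it, with each copy of the palindrome CACGUG in capitals.
Mir770: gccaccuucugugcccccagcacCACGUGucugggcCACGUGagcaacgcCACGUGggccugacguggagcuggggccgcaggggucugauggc
It holds 3 copies, which read the same on both strands, and the search was made after the sequence was seen. At least 1 copy occurred in 0.995% of the 1005 hairpins and in none of the other 5 genes, and Mir770 was the only hairpin in the table with 3. One copy lies within miR-770-5p, another crosses its 3′ end, and the last crosses the 5′ end of miR-770-3p.

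For each gene, the gene nearest in level over the 2 libraries was sought among the other 386 measured genes, by Euclidean distance of log2(CPM + 1). For Mir770 it was Mir433 of the same domain (distance 0.442), with 13795 CPM in replicate 2 against 16764 CPM in replicate 1. For Mir337 it was Mir409, also of the domain (distance 0.084), with 2730 CPM in replicate 2 against 1963 CPM in replicate 1. The other 4 were nearest to genes elsewhere: Mir673 to Mir146, Mir493 to Mir1198, Mir540 to Mir322 and Mir665 to Mir700, at distances between 0.063 and 0.092. With 2 libraries this likeness describes level and a single difference only.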

How the data were processed

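The deposited tables hold raw read counts per miRNA gene, made by the authors on mm10 with GENCODE M21 annotation, per the readme files that came with them; the aligner and counter were not given in the sources used here. Each table has 3 columns of whole numbers, read from their values as both strands, own strand and opposite strand; own-strand counts were used. The 4 entries without a gene name entered neither totals nor tests: unmapped reads were 18.2% of reads in replicate 2 and 31.6% in replicate 1, and no-feature reads 6.91% and 7.36% of mapped reads.

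CPM, shares with exact Clopper-Pearson intervals and the binomial test were computed in Python 3.11.15 with SciPy 1.17.1. With 1 group, edgeR's quasi-likelihood test has no contrast; edgeR 4.0.16 gave TMM factors and an exact test with common dispersion, DESeq2 1.42.0 size factors, and RNAfold 2.7.2 folding energies. Simulated counts with known changes served to test the binomial script. All 6 genes were named, plus domain landmarks, overlapping genes and the nearest gene to each. The genes and lists were chosen with earlier results of these data known. Alternatives were other scalings, totals, count minimums, both strands, leaving out a library, and, added after seeing the data, leaving out Mir770.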

Additional observations from a re-analysis of the deposited data

Results flagged for a closer look

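The minus-strand gene Mir3544, opposite Mir337, had 4 counts in replicate 2, just above the floor of 3 counts, in a column that the levels did not use. It had 1 count in replicate 1. Opposite-strand counts at the other 5 genes were 0 in both libraries.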

How the results depend on the processing

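With all mapped reads as the total, which adds reads with several matches and reads outside miRNA genes, the summed level of the 6 genes was 9973 CPM in place of 23478 CPM. With both strands together Mir337 had 0 counts, and Mir770 took 87.4% of the group's counts in place of 77.9%. Leaving out replicate 1 or replicate 2 gave a summed level of 19683 or 27274 CPM and a Mir770 share of 72.3% or 83.4%; a single library allows no test of the ratios. The members' share of the domain, at a log2 odds of −0.53 (replicate 2 over replicate 1), reversed to 0.21 without Mir770, and the mean share was 3.13% in place of 13.2%. The binomial test passed 4 of the 6 genes and 56.9% of all measured genes. With TMM or DESeq2 scaling 3 of the 6 passed, while 220 of all measured genes did in place of 223. With both strands together 3 of the 6 passed, since Mir337 had 0 counts there. With edgeR's exact test 0 of the 6 passed, where 0.765% of all measured genes did. The log2 ratios of Mir673 and Mir540 reversed to −0.01 with TMM and −0.02 with DESeq2 scaling. Count minimums of 1 and 100 changed no call among the 6 genes. No paired analysis was possible because there is 1 group.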
